A study of Saccharomyces cerevisiae EC1118 with 12 samples.

Results

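SET4 and SET3 are 2 of the 5449 genes measured in this series on yeast and oxygen. They were taken as a pair: SET4 because its transcript was high without oxygen and low with it, and SET3 as its paralog. Each gene had 1 probe set on the array, so no choice between probe sets was needed. The pair was chosen by the array levels of SET4 across the oxygen groups, which are therefore given here as a description, with no test. SET3 was taken for its kinship and not for its values, and its comparisons were tested.

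The RNA came from Saccharomyces cerevisiae EC1118, a commercial wine strain, grown under nitrogen limitation in chemostats fed a modified synthetic must (MS300). The cultures were kept at pH 3.5 and diluted at 0.1 per hour. The 4 groups of 3 arrays differed in the gas sparged through the culture: no oxygen (anaerobic), 1% oxygen, 5% oxygen or 20% oxygen. The titles put dissolved oxygen at 0, 1.2, 2.7 and 5 micromolar in these groups, whereas the condition text gives 0.8, 4 and 11 micromolar for the oxygenated ones, so groups are named here by the gas. All groups share the strain, the medium and the nitrogen limitation, and the labels do not say whether arrays within a group stem from separate vessels.

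Set3 and Set4 are related proteins that arose in an ancient genome duplication, and each carries a PHD finger, which can read histone marks, and a SET domain, the fold used by lysine methyltransferases. Set3 is the scaffold of the Set3 complex, a histone deacetylase complex that restrains meiotic genes and binds chromatin methylated by Set1. Set4 is known as a chromatin-associated protein linked to stress resistance, and its gene is known to be induced in hypoxia, where it limits transcription of ergosterol synthesis genes. Sterol synthesis needs molecular oxygen, and yeast without oxygen imports sterols under the control of the transcription factor Upc2.

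Each array was set against the average of its group partners, and these correlations were 0.94 to 0.992. The deviations from the group mean had an SD of 0.548 in 1% oxygen array 3 and 0.399 or less in the others. That array and anaerobic array 1 were left out together in 1 of the alternatives. Anaerobic array 1 had an SD of 0.328 and a correlation of 0.977, against 0.399 and 0.970 in 1% oxygen array 2. These measures therefore do not single out anaerobic array 1. Genes known to mark anaerobic growth were set beside the group labels, with a list chosen when their values were already known, so this is a description and no independent check. All 8 measured genes of a list of sterol importers and anaerobic mannoproteins were lower at 20% oxygen than in the anaerobic group, against 4.64% of all genes called lower there.

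SET4 was lower in the mean at each step up in oxygen. In the anaerobic group its level on the log2 scale was 7.76, 8.41 and 8.26. At 1% oxygen the 3 arrays gave 7.23, 7.07 and 6.94, all below every anaerobic array. At 5% oxygen they gave 4.37, 6.31 and 3.56, again below every array of the level before. At 20% oxygen they gave 2.46, 3.07 and 4.49, and here the ranges overlapped, since 20% oxygen array 3 lay above 5% oxygen arrays 1 and 3. The order of the means was therefore anaerobic, 1%, 5% and 20% oxygen from high to low, and the lowest pair of groups did not separate beyond their spread. An array reads the RNA of a whole culture, so fewer cells with the transcript and less transcript per cell cannot be told apart.

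The mean of SET4 was 3.34 ± 1.05 at 20% oxygen and 8.15 ± 0.34 in the anaerobic group (SD, n = 3 each). The log2 difference was -4.81, about 28.0-fold on the linear scale. All 3 arrays at 20% oxygen lay below 5.84, the level under which the lowest 25% of genes fall by their mean, so this fold and the shares taken of it are imprecise. At 5% oxygen SET4 averaged 4.75 ± 1.42, a difference of -3.40 from the anaerobic group, or 10.5-fold. At 1% oxygen it averaged 7.08 ± 0.14, a difference of -1.07, or 2.10-fold. These 3 differences share the anaerobic arrays. Going by the successive steps, SET4 differed by -2.33 between 5% and 1% oxygen and by -1.41 between 20% and 5% oxygen, so 22.2% of the whole difference was present at 1% oxygen and 70.7% at 5%. The spread of SET4 was also wide at 5% and 20% oxygen, with SDs above 1 against 0.34 or less in the other groups. In 5 of the 12 arrays SET4 lay below that level. RMA values of so weak a signal carry little information, and differences among those 5 arrays are the least secure.

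**Figure D1:**
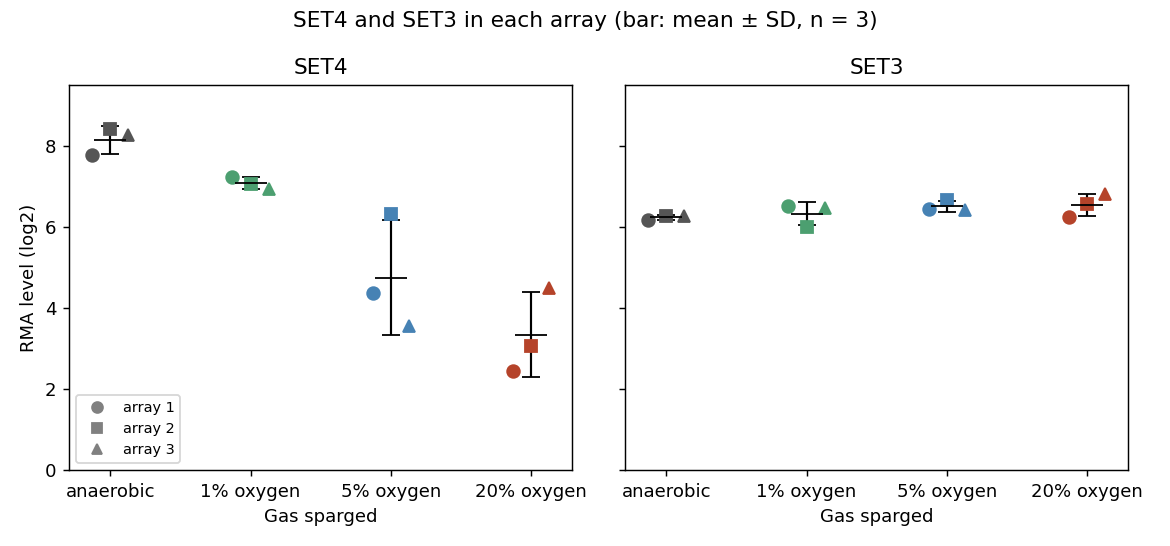
RMA level (log2, vertical axis) of SET4 (left) and SET3 (right) in the 3 arrays of each oxygen group, ordered by the oxygen in the gas. Bars show mean ± SD. SET4 lies between 7.76 and 8.41 in the anaerobic arrays and between 2.46 and 4.49 at 20% oxygen, whereas SET3 stays between 6.00 and 6.80 in all 12. Levels of different probe sets cannot be set against each other, only their patterns.

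SET3 stayed within a narrow band. Its level was 6.17, 6.26 and 6.27 in the anaerobic arrays, 6.51, 6.00 and 6.47 at 1% oxygen, 6.44, 6.65 and 6.42 at 5% oxygen, and 6.25, 6.56 and 6.80 at 20% oxygen. The means ran from anaerobic to 20% oxygen in rising order, and every group overlapped its neighbour. The 5% oxygen arrays all lay above the anaerobic ones.

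SET3 did not pass the test in any comparison with limma. At 20% oxygen it averaged 6.54 ± 0.28, against 6.23 ± 0.05 in the anaerobic group, a difference of 0.30 ± 0.20 (SE) with a 95% interval of -0.14 to 0.74 (limma, adjusted p = 0.396). At 5% oxygen the difference was 0.27 ± 0.20 with an interval of -0.17 to 0.71 (limma, adjusted p = 0.389), and at 1% oxygen 0.09 ± 0.20 with an interval of -0.35 to 0.53 (limma, adjusted p = 0.772). Of all genes, 7.91%, 16.3% and 16.4% were called in these comparisons. A test for any difference among the 4 groups gave an adjusted p = 0.577 for SET3 (limma, moderated F), where 10.1% of genes were called. The interval at 20% oxygen reaches 0.74, so a rise of up to that size was compatible with these arrays. The SD of the 4 group means of SET3 was 0.14 and its SD within groups was 0.21, and for SET4 these were 2.18 and 0.90. A mean of 3 arrays varies less than a single array, so these SDs are not on the same scale.

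Taking SET4 minus SET3 within each array cancels any shift common to the array. That difference moved by -5.11 at 20% oxygen, by -3.67 at 5% oxygen and by -1.16 at 1% oxygen, each against the anaerobic group. It was larger in size than the SET4 difference alone at each level, since SET3 was slightly higher in the mean with oxygen. These values rest on the SET4 pattern that chose the pair and carry no test. Over the 12 arrays the correlation between the members was r = -0.35 (rho = -0.31), while the deviations from the group means gave r = 0.63. Both genes were at their highest of the group in 5% oxygen array 2 and in 20% oxygen array 3, which were the highest of their groups for 31.5% and 39.3% of all genes.

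Other yeast genes of which 1 copy is known to be favoured without oxygen give a scale for this pair. ANB1, the hypoxic form of the translation factor eIF5A, differed by -2.14 ± 0.22 at 20% oxygen and its partner HYP2 by 0.09 ± 0.16. For the ADP/ATP carriers the values were -2.02 ± 0.31 for AAC3 and 1.08 ± 0.26 for PET9. COX5B and COX5A, alternative subunits of cytochrome c oxidase, differed by -0.37 ± 0.24 and 1.84 ± 0.33. The cytochrome c genes CYC7 and CYC1 differed by -0.34 ± 0.68 and 2.21 ± 0.81, and the HMG-CoA reductase genes HMG2 and HMG1 by -0.52 ± 0.21 and 0.28 ± 0.51. Single arrays set some of these values: CYC7 differed by 0.48 without anaerobic array 1 and by -0.97 without anaerobic array 2. CYC1 ran from 1.47 to 3.22 on leaving out single arrays, with a call without anaerobic array 1 (limma, adjusted p = 0.0164), and HMG1 ran from -0.05 to 0.93. Of these 10 genes, ANB1 and AAC3 fell and PET9 and COX5A rose in the test (limma, adjusted p between 0.000305 and 0.0281), where 4.64% of all genes fell and 3.27% rose, and the call of PET9 ended under 4 of 21 alternatives (adjusted p up to 0.121).

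The change of the within-array difference, hypoxic copy minus partner, was -2.23 for ANB1 and HYP2, -3.10 for AAC3 and PET9, -2.20 for COX5B and COX5A, -2.54 for CYC7 and CYC1 and -0.80 for HMG2 and HMG1 at 20% oxygen, beside -5.11 for SET4 and SET3. In the 2 cytochrome pairs the larger mean difference lay with the aerobic copy. It lay with the hypoxic copy in SET4 and SET3, as in ANB1 and HYP2, AAC3 and PET9, and HMG2 and HMG1. Without anaerobic array 1, however, HMG1 differed by 0.93. At 1% oxygen the change was -0.35 for ANB1 and HYP2, -0.97 for AAC3 and PET9, -0.40 for COX5B and COX5A and -1.16 for SET4 and SET3. It ran the other way there for CYC7 and CYC1 (0.69) and for HMG2 and HMG1 (0.22).

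**Figure D2:**
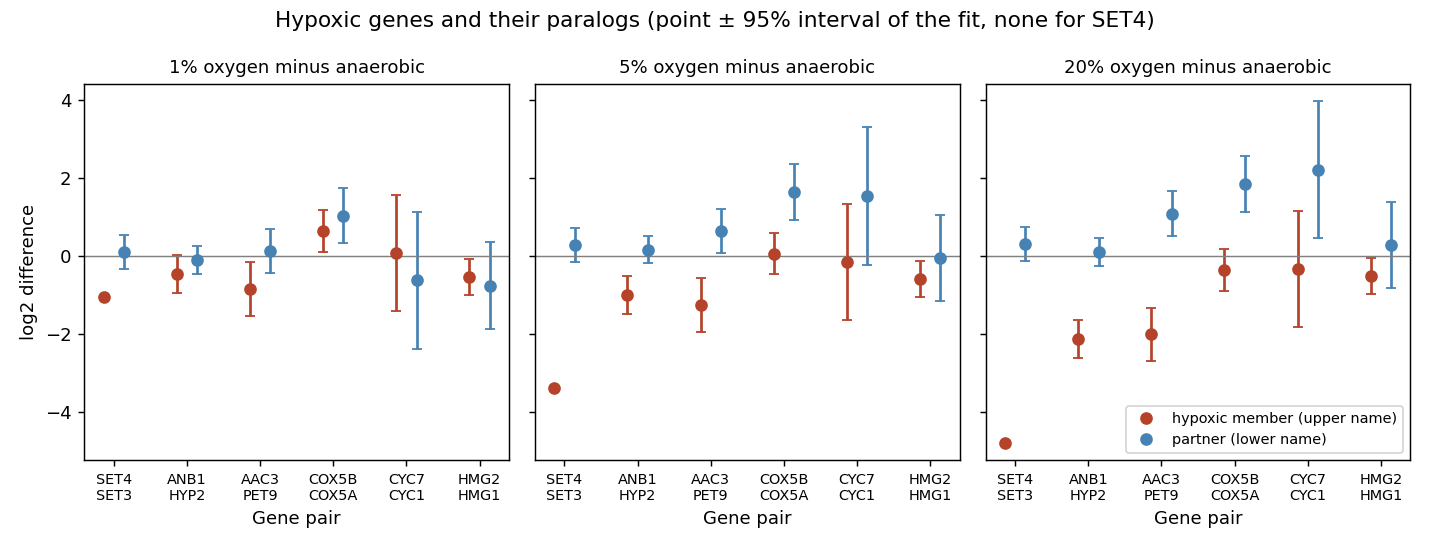
Log2 difference from the anaerobic group (vertical axis, point with the 95% interval of the fit, SET4 without one) for 6 pairs of paralogs, with the hypoxic member in red left of its partner in blue. Panels run from 1% to 20% oxygen. SET4 reaches -4.81 at 20% oxygen while SET3 is at 0.30.

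At 20% and 5% oxygen no other SET domain gene had a difference near that of SET4, whereas at 1% oxygen SET4 (-1.07) was near CTM1 (-0.80) and SET1 (-0.77). In the test of 20% oxygen against the anaerobic group with limma, 0 of the 10 other SET domain genes were called, beside 3.27% of all genes called higher and 4.64% called lower (2 of the 10 at an unadjusted p under 0.05), and their median difference was 0.04, beside 0.05 over all genes. No share of all genes at that unadjusted level was computed, so counts at that level have no background here. SET1, which methylates a lysine of histone H3, differed by -0.50 ± 0.21 (limma, adjusted p = 0.162). RKM2, a methyltransferase of a ribosomal protein, differed by 0.57 ± 0.18 (limma, adjusted p = 0.0681). On leaving out single arrays RKM2 stayed uncalled in 11 of 12 fits (limma, lowest adjusted p = 0.0480). The other 8 were SET2, another methyltransferase of histone H3, SET5, which acts on histone H4, SET6, the ribosomal protein methyltransferases RKM1, RKM3 and RKM4, EFM1, which modifies a translation elongation factor, and CTM1, which modifies cytochrome c. Their differences lay between -0.47 (CTM1) and 0.47 (EFM1). All arrays of SET6 lay between 1.01 and 1.67 and all arrays of CTM1 between 3.93 and 5.14, below 5.84. Differences at so weak a signal carry little information, so a change of SET6 could have been missed.

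Lower oxygen levels gave single calls in this family. At 5% oxygen SET1 fell (-0.86 ± 0.21, limma, adjusted p = 0.0179) and RKM2 rose (0.57 ± 0.18, limma, adjusted p = 0.0447), so 1 of 10 fell beside 11.0% of all genes and 1 of 10 rose beside 5.32%. At 1% oxygen SET1 (-0.77 ± 0.21, limma, adjusted p = 0.0322) and CTM1 (-0.80 ± 0.23, limma, adjusted p = 0.0368) fell, 2 of 10 beside 11.2% of all genes, and 0 of 10 rose, beside 5.27%. In either direction 5 of the 10 had an unadjusted p under 0.05, a level for which no share of all genes was computed. SET1 had levels of 5.29, 5.48 and 5.48 at 5% oxygen, against 6.07, 6.60 and 6.16 in the anaerobic arrays, and 5.53, 5.76 and 6.03 at 20% oxygen. Its call at 5% oxygen ended when anaerobic array 2, 5% oxygen array 1 or 5% oxygen array 2 was left out (highest adjusted p = 0.0933), and its call at 1% oxygen ended under 7 of 20 alternatives (up to 0.144). The calls of RKM2 and CTM1 ended under 11 of 21 and 10 of 20 alternatives (up to 0.177 and 0.162), leaving out either anaerobic array 2 or 3 among them.

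The partners of Set3 in its complex were measured on the same arrays. Of SNT1, a SANT domain scaffold, SIF2, a WD repeat protein, the deacetylases HOS2 and HST1, the cyclophilin CPR1 and the ankyrin repeat protein HOS4, 0 of 6 were called by limma at 20% oxygen and 0 of 6 at 5% (in both 0 at an unadjusted p under 0.05). Of all genes 7.91% and 16.3% were called there, so a count of 0 among 6 is near the background. Differences at 20% oxygen lay between -0.39 ± 0.26 for SNT1 and 0.22 ± 0.33 for SIF2. On leaving out single arrays SIF2 stayed uncalled there in 11 of 12 fits (limma, lowest adjusted p = 0.0477). At 1% oxygen SNT1 fell (-0.85 ± 0.26, limma, adjusted p = 0.0478), the only call of the 6, with levels of 6.45, 6.16 and 5.45, against 6.71, 7.14 and 6.76 in the anaerobic arrays. The lowest of these came from 1% oxygen array 3, and the call ended under 15 of 21 alternatives (adjusted p up to 0.179), among them the fit without 1% oxygen array 3 and anaerobic array 1 (0.171).

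**Figure D3:**
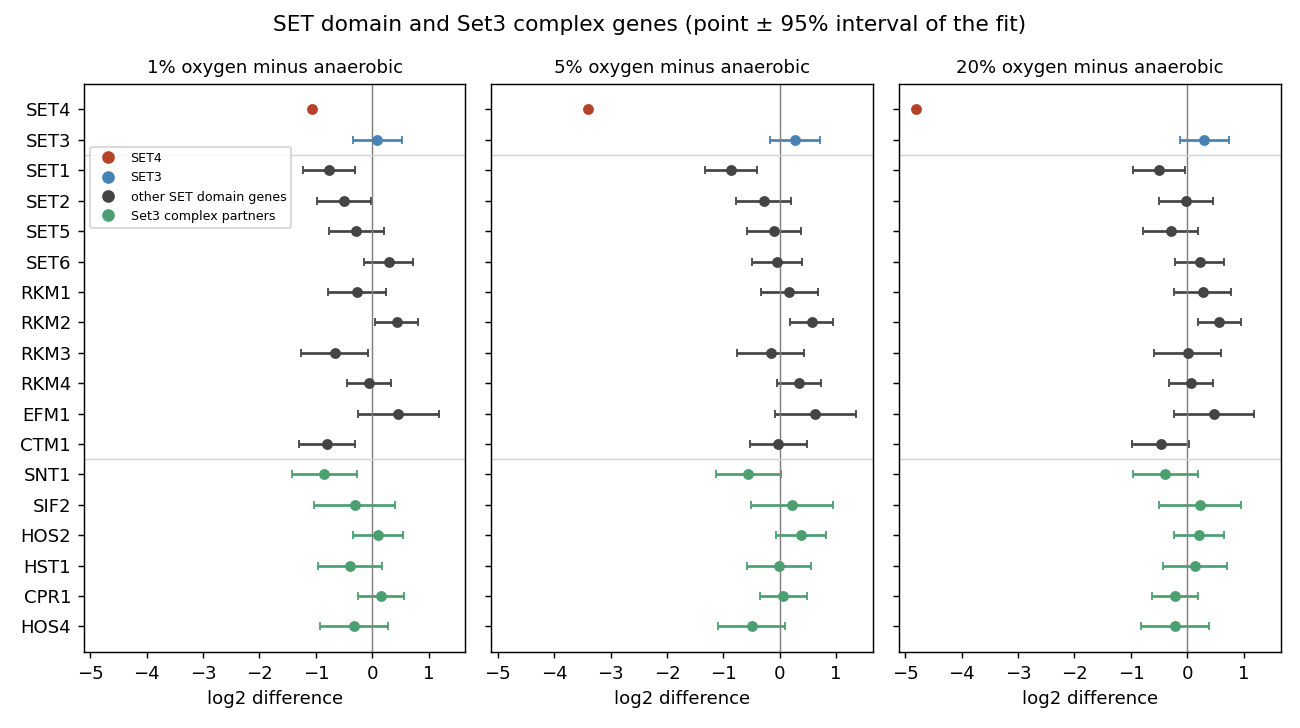
Log2 difference from the anaerobic group (horizontal axis, point with the 95% interval of the fit, SET4 without one) for SET4, SET3, 10 other SET domain genes and 6 partners of Set3. Panels run from 1% to 20% oxygen. At 20% oxygen SET4 lies at -4.81 and the other 17 genes lie between -0.50 and 0.57.

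The chromosomal neighbours of both genes were looked at as well. SET4 (YJL105W) lies on chromosome X and SET3 (YKR029C) on chromosome XI, per the S288C reference gene table (R64). Beside SET4 lie IME2, a kinase of meiosis, on one side, then YJL107C and PRM10, and on the other PAM16, a subunit of the mitochondrial import motor, then SNR37, which was not measured, and GSM1, a putative zinc cluster regulator. With limma none of these 5 measured genes was called at any oxygen level, a count near the background of 7.91% to 16.4% of all genes. GSM1, at 1.10 ± 0.42 for 20% oxygen, had the largest difference of them and the only unadjusted p under 0.05 (limma, adjusted p = 0.129). On leaving out single arrays GSM1 stayed uncalled there in 11 of 12 fits (limma, lowest adjusted p = 0.0225). IME2 differed by -0.16 ± 0.35 and PAM16 by -0.14 ± 0.25 at 20% oxygen. Around SET3, SAP190, GMH1, BCH2 and SPO14 were measured and were not called either, with differences at 20% oxygen between -0.36 ± 0.22 for GMH1 and 0.10 ± 0.28 for SPO14. SAP190 had an unadjusted p under 0.05 at 5% and 1% oxygen (limma, adjusted p = 0.0582 and 0.0662). At 5% oxygen it stayed uncalled in 10 of 12 fits that left out a single array (limma, lowest adjusted p = 0.0177).

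The likeness of other genes to SET4 was measured as Pearson's r over the 12 arrays among 4421 genes whose highest group mean was above 5.84. These correlations are descriptions over arrays that share 4 conditions. HES1, an oxysterol-binding protein gene, came first (r = 0.99, rho = 0.97), followed by IZH2, a membrane protein gene of the adiponectin receptor family (r = 0.98), and TIR2, a cell wall mannoprotein gene (r = 0.97). PBI1 (r = 0.97), UPC2 (r = 0.97), the oxidoreductase gene YGL039W (r = 0.97), EMC10 of an endoplasmic reticulum membrane complex (r = 0.96), the sterol importer gene AUS1 (r = 0.96), FHN1 (r = 0.95) and the lipid droplet protein gene TLD1 (r = 0.94) made up the 10 highest. In all, 22 genes had r above 0.9 with SET4. Without anaerobic array 1 and 1% oxygen array 3, the same 10 genes ranked 14th or higher, with HES1 first.

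HES1 shows how close the likeness was. Its level was 9.02, 10.03 and 10.00 in the anaerobic arrays, 8.59, 8.59 and 8.80 at 1% oxygen, 5.09, 7.30 and 4.48 at 5% oxygen, and 4.08, 4.19 and 5.07 at 20% oxygen. As with SET4, the lowest anaerobic array was array 1, and the highest arrays at 5% and 20% oxygen were array 2 and array 3. The share of the 20% oxygen difference already present at 1% oxygen was 19.6% for HES1, 22.2% for SET4 and 40.5% for UPC2, and over the 10 genes it ranged from 16.0% to 40.5%. At 5% oxygen it ranged from 66.0% to 92.5% over the 10 genes, with 70.7% for SET4.

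The likeness within groups varied among the 10 genes, which were chosen by r over these same arrays. With the group means removed, SET4 correlated over the 12 arrays at r = 0.94 with TLD1, 0.93 with HES1, 0.92 with PBI1 and 0.86 with both IZH2 and UPC2. It correlated at 0.85 with YGL039W, 0.79 with TIR2, 0.78 with AUS1, 0.76 with FHN1 and 0.72 with EMC10. By this measure TLD1 and HES1 ranked 1st and 2nd of all genes, and FHN1 and EMC10 ranked 70th and 110th. The deviations of SET4 were mainly those at 5% and 20% oxygen (SD 1.42 and 1.05, against 0.34 anaerobic and 0.14 at 1%). All 5 SET4 values below 5.84 lie in those groups, so these r values and ranks rest largely on weak signals. In 5% oxygen array 2, SET4 was 2.35 above the mean of its partner arrays, and in 20% oxygen array 3 it was 1.73 above. All 10 of the most similar genes were also at their highest of the group in these arrays, which their choice by r over the same arrays favours. Of the 8 sterol importer and mannoprotein genes, 8 were highest in 5% oxygen array 2 and 7 in 20% oxygen array 3, beside 31.5% and 39.3% of all genes. TIR2 and AUS1 belong to both sets of genes. Of 25 ergosterol synthesis genes, 18 and 16 were highest in these arrays.

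**Figure D4:**
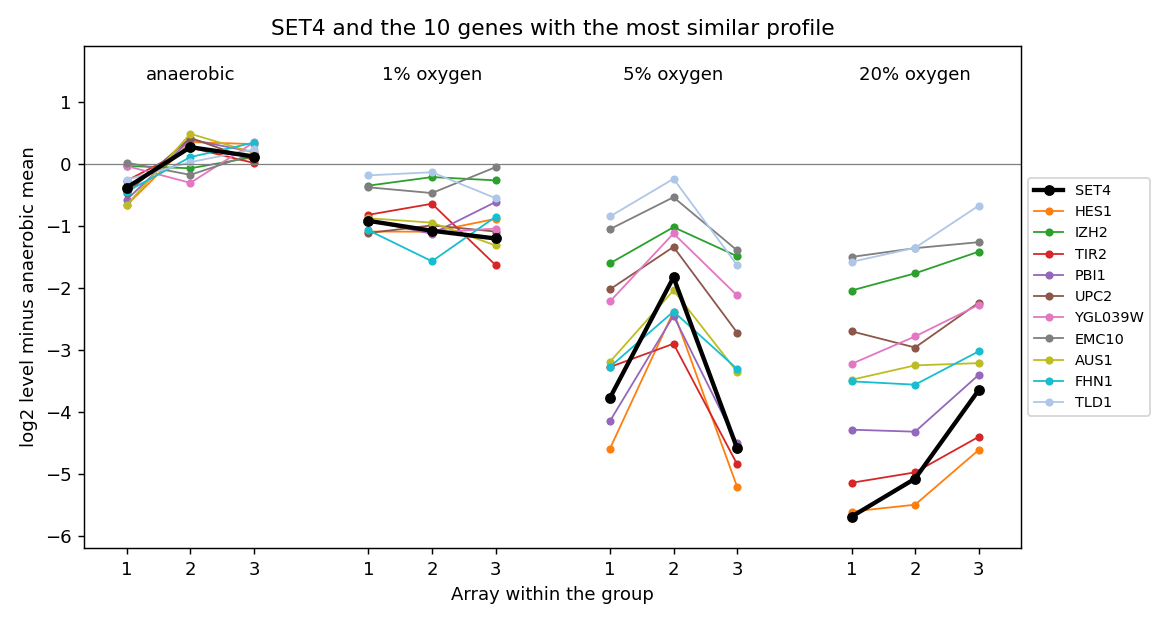
Log2 level minus the anaerobic mean of the gene (vertical axis) for SET4 (black) and the 10 genes with the highest r, by array within each oxygen group. Lines join values of 1 gene within a group, and the arrays have no order. SET4 and the 10 genes are all at their highest of the group in 5% oxygen array 2 and 20% oxygen array 3.

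UPC2, the sterol sensor and activator of sterol uptake genes, was the only one of 10 listed oxygen and sterol regulators with r above 0.9. Its level was 7.25, 8.14 and 7.78 in the anaerobic arrays, 6.61, 6.73 and 6.63 at 1% oxygen, 5.70, 6.38 and 5.00 at 5% oxygen, and 5.02, 4.76 and 5.48 at 20% oxygen. It fell at 20% oxygen (-2.64 ± 0.33, limma, adjusted p = 0.000885) and at 5% oxygen (-2.03 ± 0.33, limma, adjusted p = 0.00311). At 1% oxygen it also passed (-1.07 ± 0.33, limma, adjusted p = 0.0476), a call that ended under 11 of 21 alternatives (adjusted p up to 0.184). UPC2 is singled out by its likeness to SET4 over these same arrays, and SET4 was chosen for its fall. A fall of UPC2 follows largely from that choice, so these tests are no independent evidence. The regulator list was also chosen with earlier results of these data known. At 20% oxygen 3 of the 10 regulators fell, beside 4.64% of all genes. The count was 6 of 10 at 5% oxygen, beside 11.0%, and 5 of 10 at 1% oxygen, beside 11.2%. On leaving out single arrays the 5% oxygen count ran from 3 to 7. All 5 calls at 1% oxygen ended without anaerobic array 2 (limma, adjusted p from 0.0579 for CYC8 to 0.184 for UPC2). The other 20% oxygen calls were IXR1 (-1.73 ± 0.35) and CYC8 (-1.56 ± 0.32), whose r with SET4 was 0.61 and 0.58. Each of these calls ended when anaerobic array 2 was left out, or 20% oxygen array 2 (highest adjusted p = 0.0533 for IXR1 and 0.0586 for CYC8). HAP1, the heme-responsive activator, had r = 0.83 and differed by -0.69 ± 0.20 (limma, adjusted p = 0.0581). The repressor genes ROX1 and TUP1 had r = 0.38 and 0.39, and 0.54 and 0.59 without anaerobic array 1 and 1% oxygen array 3. ROX1 varied widely within the anaerobic group, with levels of 10.42, 9.05 and 6.98.

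The sterol importer and mannoprotein list and the sterol synthesis list were set beside SET4, and no difference between the lists was tested. All 8 measured genes of the uptake and mannoprotein list (of 9, DAN3 was not measured) had r between 0.82 for TIR3 and 0.97 for TIR2, with a median of 0.92. At 20% oxygen 8 of 8 fell, beside 4.64% of all genes, with a median difference of -3.85, led by TIR4 (-5.73 ± 0.91), DAN1 (-5.39 ± 0.90), TIR2 (-4.84 ± 0.44) and TIR1 (-4.14 ± 0.62). The call of TIR3 (-3.26) ended when anaerobic array 2, anaerobic array 3 or 20% oxygen array 2 was left out (highest adjusted p = 0.0802, limma). The list was chosen with these results known, so its direction is not independent evidence. At 5% oxygen 7 of 8 fell, beside 11.0% of all genes, and at 1% oxygen 1 of 8, DAN4 (-2.25 ± 0.66, limma, adjusted p = 0.0386), beside 11.2%. The DAN4 call ended under 5 of 21 alternatives (adjusted p up to 0.146, limma), and its difference was -1.46 without anaerobic array 2. At 5% oxygen the call of TIR3 ended under 9 of 21 alternatives (adjusted p up to 0.134, limma) and that of TIR1 under 2, and the count was 5 of 8 without anaerobic array 2. DAN4 was named for 1% oxygen after its values were seen.

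The 25 ergosterol synthesis genes, among which are those that Set4 is known to restrain in hypoxia, spread from r = -0.28 for HMG1 to 0.83 for ERG10, with a median of 0.53 beside -0.06 over all genes. Without anaerobic array 1 and 1% oxygen array 3 the range was -0.74 for HMG1 to 0.90 for MVD1. At 20% oxygen 2 of 25 were called, both lower, ERG6 (-2.39 ± 0.51, limma, adjusted p = 0.0153) and CYB5 (-1.27 ± 0.30, limma, adjusted p = 0.0252), and the median difference was -0.28. The share of the list called was near that of all genes, 7.91%. At 5% oxygen 4 of 25 fell, beside 11.0% of all genes, and at 1% oxygen 2 fell and 1 rose, beside 11.2% and 5.27%. The 5% oxygen calls of CYB5 and ERG7 ended under 10 and 7 of 21 alternatives, those of ERG6 and NCP1 under 0. On leaving out single arrays the number called lower at 5% oxygen ran from 2 to 5. The 1% oxygen calls of ERG7, ERG6 and ERG4 ended under 9, 5 and 4 of 21 alternatives. The calls of ERG6 and CYB5 at 20% oxygen ended under 3 and 5 of 21 alternatives (adjusted p up to 0.0665 and 0.105). The synthesis genes ERG1, which encodes squalene epoxidase, ERG24 and ERG25 had r = 0.73, 0.74 and 0.68, and ERG11 and ERG3 had r = 0.20 and 0.38.

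Lists of chromatin genes were set beside SET4 without a test against other genes, whose median r over all genes was -0.06. The r with SET4 lay between -0.64 and 0.47 for the 10 other SET domain genes, between -0.32 and 0.43 for the Set3 complex partners, between -0.65 and 0.47 for the 8 genes of COMPASS, the complex of Set1, between -0.73 and 0.41 for 13 PHD finger genes and between -0.69 and 0.37 for 12 histone deacetylase genes. At 20% oxygen 0 of 8 COMPASS genes were called by limma (1 at an unadjusted p under 0.05), beside 7.91% of all genes, a share that 0 of 8 is near. Of the PHD finger genes, JHD1, a histone demethylase gene, and YNG1, of a histone acetyltransferase complex, rose, 2 of 13 beside 3.27% of all genes (1.12 ± 0.30 and 0.96 ± 0.24, limma, adjusted p = 0.0406 and 0.0283). The sirtuin gene HST4 rose as the 1 called deacetylase of 12, beside the same 3.27% (0.84 ± 0.20, limma, adjusted p = 0.0258). These 3 calls ended under 9 of 20, 5 of 21 and 6 of 21 alternatives. On leaving out single arrays the number of deacetylase genes called higher at 20% oxygen ran from 0 to 3.

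**Figure D5:**
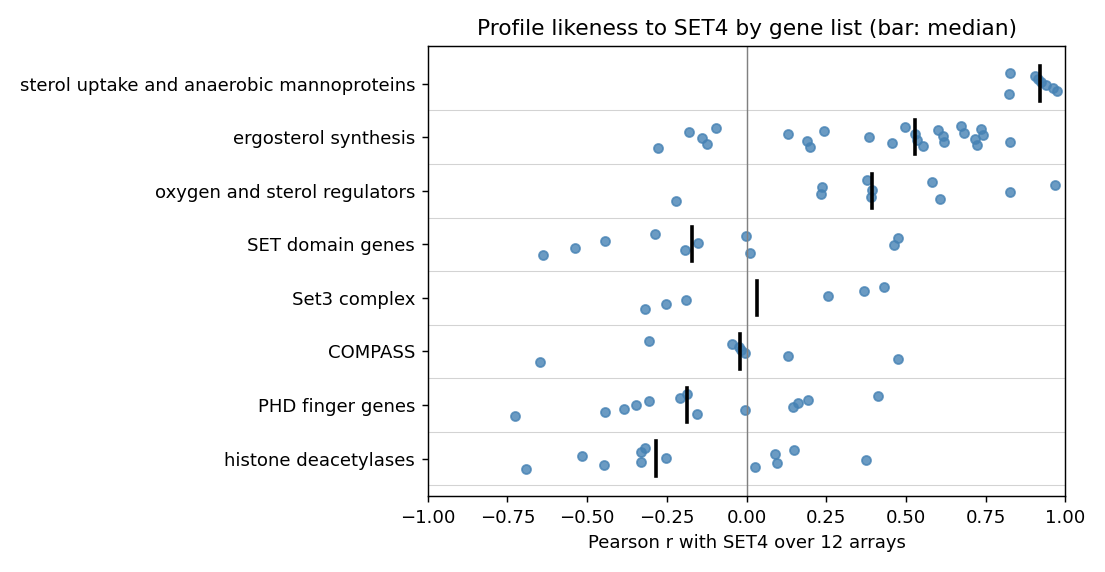
Pearson's r with SET4 over the 12 arrays (horizontal axis) for the genes of 8 lists, 1 point per gene, with the median as a black bar. The 8 sterol importer and mannoprotein genes lie between 0.82 and 0.97, and no SET domain, Set3 complex, COMPASS, PHD finger or deacetylase gene lies above 0.47.

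The profiles that ran opposite to SET4 were those of RKM5, a ribosomal protein methyltransferase gene without a SET domain (r = -0.95), YNR068C (r = -0.92), ARG8 of arginine synthesis (r = -0.92), ERC1 (r = -0.92) and MIR1, the mitochondrial phosphate carrier gene (r = -0.91). RKM5 had levels of 7.84, 7.68 and 7.67 at 20% oxygen, against 6.18, 6.39 and 6.50 in the anaerobic arrays. Its choice by r with SET4 over these same arrays favours such a separation. With the group means removed these 5 genes had r between -0.40 and -0.70 with SET4.

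The genes most like SET3 were others than those most like SET4. BRE1, the ubiquitin ligase of histone H2B, came first (r = 0.96), then SWI4 (r = 0.95), a transcription factor of the start of the cell cycle, TRL1 (r = 0.95), the tRNA ligase gene, the cyclin gene CLB5 (r = 0.93) and HEH2 (r = 0.92), of the inner nuclear membrane. With the group means removed r was between 0.90 and 0.98 for these 5. BRE1 had levels of 8.45, 8.63 and 8.54 in the anaerobic arrays, 8.75, 8.22 and 8.59 at 1% oxygen, 8.65, 8.99 and 8.67 at 5% oxygen and 8.40, 8.93 and 9.09 at 20% oxygen. As in SET3, the lowest array at 1% oxygen was array 2, and the highest at 20% oxygen was array 3. Other genes shared these shifts. 20% oxygen array 3 was the highest of its group for 39.3% of all genes. In 1% oxygen array 2 the median difference of all genes from the partner arrays was -0.15. The most opposite profiles to SET3 were those of DFM1 (r = -0.84), CAP2 (r = -0.81), PDC1 (r = -0.79), YKE4 (r = -0.78) and YML6 (r = -0.77). Of the listed histone deacetylase genes, HDA3 had the highest r with SET3, 0.92, at a highest group mean below 5.84, and its r with SET4 was -0.45.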

How the data were processed

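Biotin-labelled RNA was read on 12 Affymetrix arrays, per the labels' protocols. The deposited table holds 1 log2 value per probe set and array for 5716 probe sets; the submitters' processing notes name RMA without settings, and the log2 scale was read from the values, which lie between 0.318 and 13.7. RMA adjusts background, normalizes arrays together and compresses weak signals, and precision is limited by the few arrays.

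The platform annotation named 1 gene for 5498 probe sets and none for 218. All 5498 identifiers matched the R64 gene table, through which 12 symbols were updated. For 47 genes with several probe sets, the one with the highest mean was used, which left 5449 genes. With limma 3.58.1 (R 4.3.3), lmFit and eBayes gave the means of the 4 groups from the 12 arrays together. Benjamini-Hochberg adjustment ran over all genes, and calls were made below an adjusted p of 0.05. Counts at an unadjusted p under 0.05 stand without the share of all genes at that level, which was not computed. P-values reflect only how these arrays differ among themselves, which can be technical. The alternatives changed the scaling, the prior, the samples fitted, the filter on dim genes and the replicate block, and left out single arrays. The fit was tested on simulated data.

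Named besides the members are the 10 highest and 5 lowest profiles by r with SET4, 5 and 5 with SET3, 3 neighbours on each side, all SET domain and Set3 complex genes, the paralog pairs, and from every other list up to 4 called genes at 20% oxygen, or else that with the smallest p. Genes named beyond this rule, in the text on regulators, synthesis genes and deacetylases, were chosen after their values were seen. The members and the 10 lists were chosen with earlier results of these data known. A further level of 21 micromolar dissolved oxygen in the series design was not analysed here.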

Additional observations from a re-analysis of the deposited data

How the results depend on the processing

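SET4, SET3 and the difference between their changes were recomputed under 21 alternatives for each oxygen level. The SET4 difference moved by less than its SD between arrays in each that could be run, with -5.38 to -4.36 at 20% oxygen, -4.18 to -2.80 at 5% and -1.26 to -0.93 at 1% on leaving out single arrays. Leaving out dim genes drops SET4, whose mean of 5.83 lies just under the bound of 5.84, so that setting has no SET4 value. SET3 was not called under any of them (adjusted p 0.177 or higher), and its 1% oxygen difference was -0.01 without anaerobic array 1 and 1% oxygen array 3. The number of genes called, which serves as background, was less stable. On leaving out single arrays it ran from 153 (without anaerobic array 2) to 758 (without 1% oxygen array 3) at 20% oxygen (431 with all arrays), from 400 (without anaerobic array 2) to 1303 (without 1% oxygen array 3) at 5% (889), and from 36 (without anaerobic array 2) to 985 (without 1% oxygen array 2) at 1% (895). It was 1602 at 5% and 447 at 1% with only the groups compared, and 155 at 1% oxygen without anaerobic array 1 and 1% oxygen array 3. With quantile scaling the split of calls was 454 higher and 560 lower at 5% oxygen (290 and 599 as deposited) and 467 and 480 at 1% (287 and 608), and with median scaling 393 and 519 at 1%. The replicate block changed no call of SET3 and left 523 calls at 1% oxygen. Same-numbered arrays do not pair: the deviations of 18 same-numbered pairs correlated at -0.32 to 0.36 (median -0.12), and 1 of 12 arrays correlated best with its own number. The cause of these changes was not tested.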
